A study of Taeniopygia guttata with 24 samples.

Results

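The sex difference in the telencephalon of adult zebra finches (Taeniopygia guttata) was examined in 6 of the 24 RNA-Seq samples of the series, 3 labelled male and 3 labelled female. They were chosen by their labels of sex and age alone. Each sample was a pool of RNA from the telencephalons of 3 birds, labelled with a single sex, so that bird-to-bird variation within a pool could not be seen. Adults were birds of over 170 days post hatch (dph) in the sample descriptions, whereas the methods of the study give a lower minimum age. The other 18 samples were pools of males and females at 1, 20 and 65 dph, 3 per sex and age, which served as a reference and shared in the estimate of the spread. The birds were untreated and raised in an aviary, with no genetic change, and the whole telencephalon was taken, so that song nuclei and the regions around them were averaged. In such bulk tissue, fewer cells of a type and less RNA per cell cannot be told apart. Below, the samples are called female pools 1 to 3 and male pools 1 to 3, numbered in the order of their accessions.

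In birds, males carry a pair of Z chromosomes, and females carry a Z and a W. Birds have no mechanism known to silence a whole Z chromosome in males, so that many Z genes are expressed more highly in males, and dosage compensation acts gene by gene. In zebra finches only males sing, and the song circuit of the telencephalon differs strongly between the sexes. The level of Z genes therefore also serves as a check of the sex of a sample. The assembly on which the reads were counted was made from a male bird and holds no W chromosome.

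Between 18230523 and 20426891 reads were counted on genes in the adult pools, against 16680575 to 28772178 over all 24 samples. A count of 3 corresponded to between 0.147 and 0.165 cpm, the count scaled to a common library total, in the adult pools. Values are cpm after TMM normalization unless stated otherwise. Of 18618 genes in the table, 13891 reached at least 1 cpm in at least 3 of the 24 samples and were tested. A chromosome was known for 3884 of them and a symbol for 3514, taken from gene lists of the study that were in part chosen on these samples. The 639 genes listed on Z are called Z genes, and the other 13252, most of them with no stated chromosome, are called other genes. Z linkage came in part from lists that group Z genes by dosage compensation in these samples. Those lists have no group for a male bias in adults but not at 1 dph. Z genes of that kind may therefore stand among the other genes.

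The 3 male pools were not alike in Z expression. A Z index was computed for each pool as the median over the 639 Z genes of log2 cpm minus the mean of the 3 females at 65 dph. At the younger ages the index lay between -0.08 and 0.08 in the 9 female pools and between 0.62 and 0.77 in the 9 male pools, so that the sexes did not overlap. In adults it was 0.26, 0.33 and 0.30 in female pools 1, 2 and 3. In male pools 1, 2 and 3 it was 0.32, 0.69 and 0.44. Male pool 2 stood among the younger males, male pool 1 lay between the adult female pools, and male pool 3 lay between these levels. All 3 adult female pools stood above every younger female pool. Adult males exceeded adult females by a mean of 0.19 in this index, with an SD of 0.19 among the male pools and of 0.03 among the female pools, and the groups overlapped (two-sided exact permutation test, p = 0.20, n = 3 per sex, where 0.10 is the smallest p that 3 against 3 allows). Without male pool 2 the difference fell to 0.08, and without male pool 1 it was 0.27. The corresponding index of the other genes lay between -0.01 and 0.00 in all 6 adult pools.

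**Figure D1:**
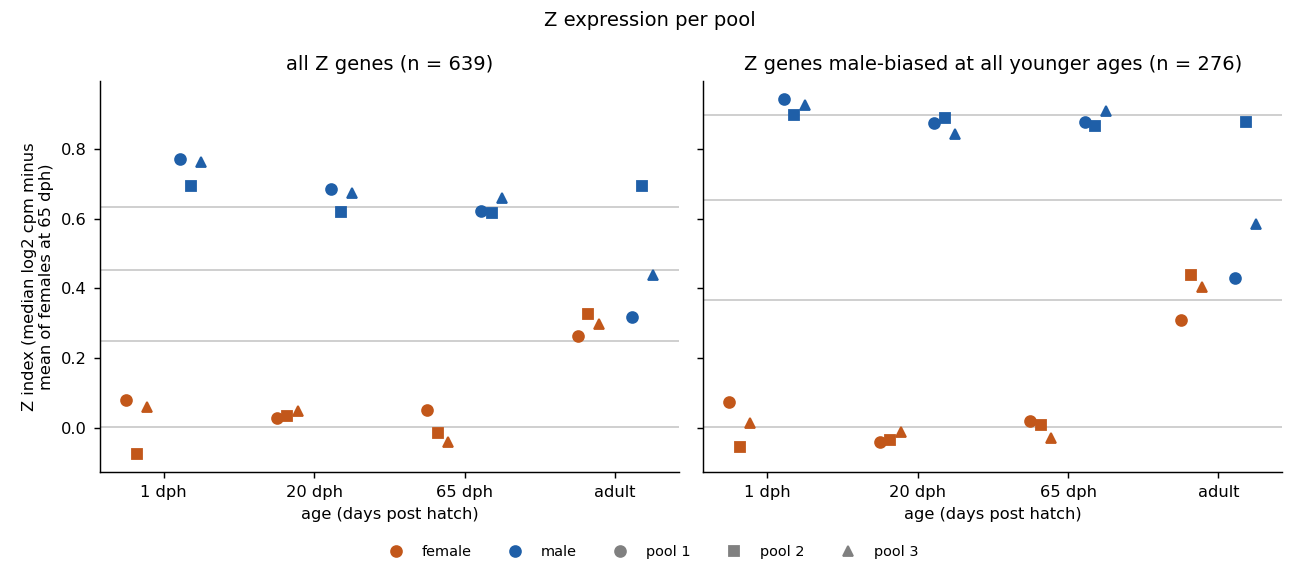
Z index of all 24 pools (y axis, log2 units relative to females at 65 dph) by age (x axis), over all 639 Z genes on the left and over the 276 Z genes with a male bias at every younger age on the right; each point is a pool, and grey lines mark the 65 dph male and female cpm averaged in 0, 1, 2 or 3 male parts of 3. In adults male pool 2 sits with the younger males at 0.69 on the left, while male pool 1 at 0.32 sits among the female pools at 0.26 to 0.33.

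A second index used only Z genes chosen on the younger samples. It held the 276 Z genes whose males and females did not overlap at 1, 20 or 65 dph and whose male to female (M:F) ratio of mean cpm was at least 1.5 at each of these ages. The younger females lay between -0.05 and 0.07 and the younger males between 0.84 and 0.94, which the choice of genes fixed in part. No adult pool entered that choice, but the 65 dph females, the reference of the index, did. Adult female pools 1, 2 and 3 had an index of 0.31, 0.44 and 0.40, and male pools 1, 2 and 3 had 0.43, 0.87 and 0.58. Again male pool 1 lay below the highest female pool and male pool 2 within the range of the younger males (two-sided exact permutation test, p = 0.20, n = 3 per sex). With the mean over genes in place of the median, or with the 134 genes of a ratio of at least 1.8, male pool 1 no longer overlapped the females and p was 0.10. As a scale for these values, the mean cpm of males and females at 65 dph were averaged in fixed proportions. An average of 1 male part and 2 female parts gave an index of 0.37, 2 male parts and 1 female part gave 0.65, and 3 male parts gave 0.90. The adult female pools and male pool 1 thus lay near the first of these values, male pool 3 between the first and the second, and male pool 2 near the last. Pools that held birds of both sexes and adult birds that express Z genes at other levels than younger birds cannot be told apart in these data, and every comparison below rests on pools as labelled.

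The male pools stood apart most in Z genes with a large earlier sex bias. Z genes were grouped by their fitted log2 M:F ratio over the 3 younger ages. In the 84 genes under 0.25, the median level relative to 65 dph females lay between 0.01 and 0.13 in all 6 adult pools. In the 214 genes of 0.75 to 1.0, it was 0.29, 0.42 and 0.37 in female pools 1, 2 and 3, and 0.42, 0.85 and 0.56 in male pools 1, 2 and 3. In the 75 genes of 1.0 or more, the female pools lay at 0.36, 0.46 and 0.50 and the male pools at 0.50, 0.99 and 0.62. The level relative to the 65 dph females was therefore higher in the group of largest earlier bias than in that of smallest bias in each adult pool, females included. The 65 dph females entered both the grouping and the reference, so that this rise shared by all pools was fixed in part. Male pool 2 followed the 65 dph M:F ratio most closely. From the lowest group to the highest, the median adult M:F ratio was 1.00, 1.07, 1.13, 1.20 and 1.20.

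**Figure D2:**
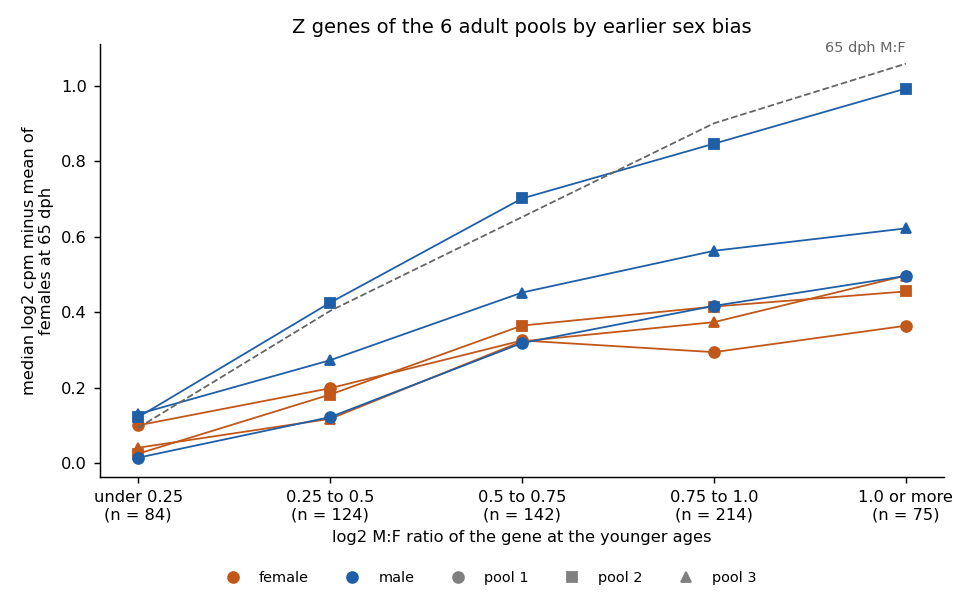
Median level of Z genes in each adult pool (y axis, log2 cpm minus the mean of 65 dph females) for 5 groups of Z genes by their log2 M:F ratio at the younger ages (x axis, number of genes in brackets); each line is a pool and the dashed line is the median log2 M:F ratio at 65 dph. Male pool 2 follows the dashed line up to 0.99, while male pool 1 stays with the female pools.

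Counts of single genes gave the same order. Male pool 2 exceeded all 3 female pools in 513 of 639 Z genes (80.3%), male pool 3 in 358 (56.0%) and male pool 1 in 165 (25.8%). Over the other genes these shares were 21.7%, 23.2% and 25.6%, so that male pool 1 stood above the females about as often among Z genes as among other genes. Male pool 2 was the highest of the 6 adult pools in 472 Z genes (73.9%), compared with 13.6% of the other genes.

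Genes read mostly in females were sought as a second check, since transcripts of W genes may be counted on related genes of the assembly. No gene had at least 1 cpm in each of the 9 younger female pools and a male median under 0.1 times theirs. A looser rule was then set after seeing the data, with at least 1 count in each younger female pool, at least 20 counts over them and a female median at least 4 times that of the males. It gave 13 genes of low counts, whose summed level ranged from 3.55 to 12.4 cpm of the library total in the younger females and from 0.334 to 6.68 in the younger males, so that their sum did not separate even the younger sexes. Their sum was 5.69, 8.23 and 7.45 cpm in adult female pools 1, 2 and 3. In male pools 1, 2 and 3 it was 3.74, 2.80 and 6.85 cpm (two-sided exact permutation test, p = 0.20, n = 3 per sex). Among them ENSTGUG00000017276, singled out after its values were seen and with no symbol, had 8 to 31 counts in the younger females and 0 to 6 in the younger males. It had 17, 16 and 10 counts in adult female pools 1, 2 and 3, and 9, 1 and 23 in male pools 1, 2 and 3. On this gene male pool 2 lay in the range of the younger males, and male pools 1 and 3 lay in that of the younger females. The other genes of the 13 did not all share this order, and ENSTGUG00000002014 had 7, 6 and 4 counts in the adult female pools and 2, 0 and 2 in the male pools, all of them below the females.

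The genes that differed between adult males and females were few, and all of them were higher in males. The edgeR quasi-likelihood test with Benjamini-Hochberg adjustment over all 13891 genes called 6 genes at 0.05, which is 0.0432% of those tested, and none lower in males, where the likelihood ratio test called 2 and DESeq2's Wald test 3. At an unadjusted p under 0.05 there were 648 genes (4.66%), 471 higher in males (3.39%) and 177 lower (1.27%). No gene listed on Z was called, although 193 Z genes were higher and 2 lower in males at an unadjusted p under 0.05. The likelihood ratio test called 4 Z genes and DESeq2's Wald test 2. The number of calls depended on the test and on the pools. The likelihood ratio test gave 18 genes, DESeq2's Wald test 16, and the staged test of the study's methods, in which genes changing with age or with sex at another age also reach the second stage, gave 299 genes, 184 of them on Z. Without male pool 1 there were 18 genes, 10 of them on Z, without male pool 3 there were 12, and without male pool 2 there were 4.

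None of the called genes has a symbol in the lists used here, and their functions are not known from these sources. None is placed on a chromosome there either, so that whether any of them lies on Z is not known. ENSTGUG00000014010, listed on unplaced sequence, had 0.893, 0.452 and 0.110 cpm in female pools 1, 2 and 3, and 31.3, 29.7 and 12.3 cpm in the male pools. That is a difference of 5.64 ± 0.52 on the log2 scale (SE, edgeR adjusted p = 3.33e-06). This gene would not have passed the filter of 1 cpm in 3 samples without adult male pools, so that its direction was fixed in part. ENSTGUG00000008939 had 12.2, 2.66 and 2.48 cpm in the female pools and 294, 249 and 106 cpm in the male pools, a log2 difference of 5.23 ± 0.55 (SE, edgeR adjusted p = 1.69e-05). In ENSTGUG00000001661 the female pools had 8.48, 1.47 and 1.88 cpm and the male pools 150, 150 and 59.5 cpm, a log2 difference of 4.93 ± 0.53 (SE, edgeR adjusted p = 1.69e-05). These genes shared an order of pools, with male pool 3 the lowest male and female pool 1 the highest female.

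ENSTGUG00000008960 showed another order. It had 4, 4 and 0 counts in the female pools, or 0.223, 0.226 and 0 cpm, and 7.26, 7.93 and 23.4 cpm in the male pools, so that male pool 3 was the highest. Its log2 difference of 6.38 ± 0.61 (SE, edgeR adjusted p = 4.33e-05) rests on 8 female counts. The gene passed the filter of 1 cpm in 3 samples only through the adult male pools, so that its direction was fixed in part. The last 2 genes were expressed in all pools. ENSTGUG00000004607 had 37.4, 32.4 and 33.2 cpm in the female pools and 122, 170 and 63.0 cpm in the male pools, or 3.45-fold more in males (edgeR adjusted p = 0.00983). ENSTGUG00000017273 had 80.9, 62.6 and 72.5 cpm in the female pools and 289, 409 and 117 cpm in the male pools, or 3.77-fold more (edgeR adjusted p = 0.00983). For these last 2 genes the call was lost with any female pool or male pool 2 left out and with the 6 adult samples fitted alone, where edgeR adjusted p-values ranged from 0.0524 to 0.328.

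The called genes were not called at the younger ages. Over the 18 younger samples the fitted mean sex difference of the 6 genes had edgeR adjusted p-values of 0.751 to 1.00. ENSTGUG00000014010 ranged from 0 to 1.15 cpm in the younger females and from 0 to 1.41 cpm in the younger males. For ENSTGUG00000008939 the ranges were 0 to 10.3 cpm in younger females and 0 to 14.3 cpm in younger males, with values over 1 cpm only at 65 dph. ENSTGUG00000008960 did not exceed 0.331 cpm in any younger pool. Levels of this gene and of ENSTGUG00000014010 were so low there that the test could hardly have called them. ENSTGUG00000001661 did not exceed 8.57 cpm in a younger pool. These 4 genes thus reached their adult male levels in no other pool of the series. ENSTGUG00000004607 reached 76.0 cpm in a male pool at 20 dph and 74.9 cpm in a female pool at 65 dph, above the 63.0 cpm of adult male pool 3. ENSTGUG00000017273 likewise reached 146 cpm in a male pool at 20 dph, above the 117 cpm of adult male pool 3. The adult sex difference was larger than that at 65 dph for all 6 genes when the difference was tested itself (interaction in edgeR, adjusted p = 0.00101 to 0.0179). These genes were chosen on the adult difference that this test contains, so that its outcome was fixed in part.

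**Figure D3:**
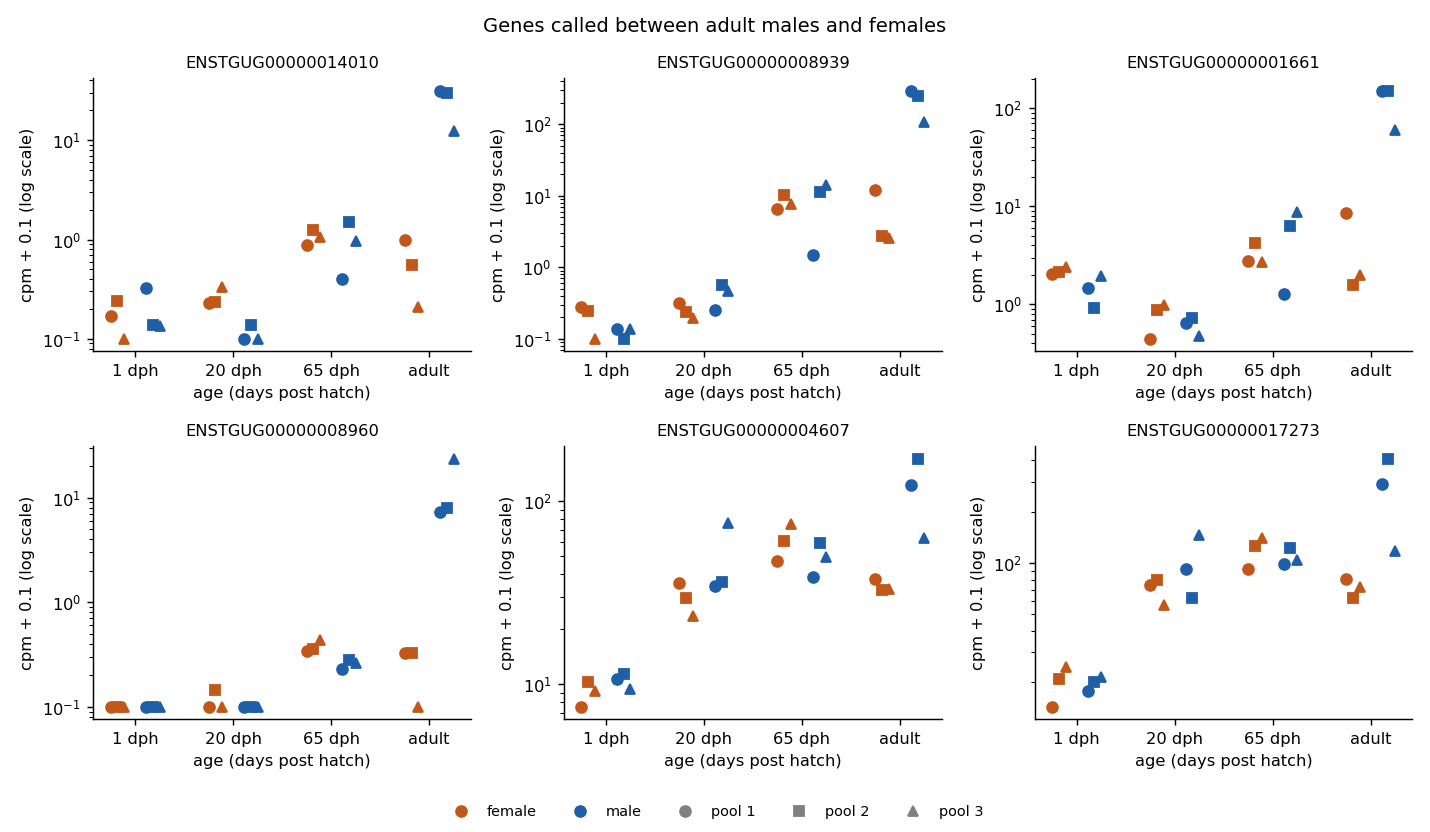
Expression of the 6 called genes in all 24 pools (y axis, cpm + 0.1 on a log scale) by age (x axis); each point is a pool, coloured by sex and shaped by pool number. In ENSTGUG00000014010 the adult male pools stand at 12.3 to 31.3 cpm and every other pool at or below 1.41 cpm, and ENSTGUG00000008960 has its highest value, 23.4 cpm, in adult male pool 3.

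Further genes without a symbol had high levels in male pools but were not called by edgeR's quasi-likelihood test. Counted after their values were seen, 7 of the other genes had at least 4-fold more in males, with pools that did not overlap and an unadjusted p under 0.05, and male pool 3 was the lowest male in 5 of them. Of these, 4 are given here, and all 4 were called by the likelihood ratio test, by DESeq2's Wald test and by the staged test. ENSTGUG00000008881 had 11.8, 9.38 and 8.00 cpm in the female pools and 150, 225 and 37.3 cpm in the male pools (edgeR adjusted p = 0.273), and in younger pools it ranged from 1.99 to 330 cpm. ENSTGUG00000006574 had 0.447, 0.226 and 0.607 cpm in females and 15.8, 21.9 and 2.55 cpm in males (edgeR adjusted p = 0.20). For ENSTGUG00000008354 the values were 3.13, 2.71 and 2.59 cpm in females and 16.9, 18.9 and 5.81 cpm in males (edgeR adjusted p = 0.21), and for ENSTGUG00000010325 they were 0.391, 0.0565 and 0.552 cpm in females and 3.10, 5.45 and 0.917 cpm in males (edgeR adjusted p = 0.20). Single pools reached such levels at younger ages as well, as the 330 cpm of ENSTGUG00000008881 shows. In ENSTGUG00000010325 no female pool of any age exceeded 0.662 cpm. It thus passed the filter of 1 cpm in 3 samples only through male pools, adult male pools 1 and 2 among them, so that its direction was fixed in part. Its counts were 7, 1 and 10 in the adult female pools and 55, 108 and 18 in the adult male pools.

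Among other genes with a symbol, none was called by edgeR's quasi-likelihood test. Of the 2929 other genes with a symbol, 34 had the 3 male pools above the 3 female pools and 24 had them below. Both counts also required an unadjusted p under 0.05 and the same direction with any adult pool left out. The 10 of lowest p in each direction are described here. The staged test called 18 of these 20 genes, all but FANCI and SESN1, and the likelihood ratio test and DESeq2's Wald test called MPEG1 alone among them. Since they were chosen for pools that do not overlap, this is no finding about them. Pools did not overlap in 8.33% of all tested genes, 4.8% with males above and 3.53% with males below. These shares ask for no overlap alone, without the terms on the symbol, p and left-out pools.

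The gene of lowest p was MPEG1 on chromosome 5, which encodes a pore-forming protein of macrophages. It had 4.52, 3.33 and 3.09 cpm in female pools 1, 2 and 3, and 7.49, 8.23 and 5.25 cpm in the male pools. Males thus had 1.91-fold more, with a log2 difference of 0.94 ± 0.21 (SE, edgeR adjusted p = 0.20), and it was also called without male pool 3 (edgeR adjusted p = 0.0359). WDFY4 on chromosome 6, known in mammals from antigen cross-presentation by dendritic cells, had 7.59, 9.27 and 8.83 cpm in females and 12.8, 11.6 and 17.3 cpm in males (edgeR adjusted p = 0.564). RGS9 on chromosome 18, a regulator of G protein signalling enriched in the striatum, had 20.1, 18.4 and 25.4 cpm in females and 25.9, 27.8 and 31.8 cpm in males (edgeR adjusted p = 0.538). The gap between female pool 3 and male pool 1 in RGS9 was narrow. ANGPT4, a ligand of the endothelial receptor TEK, had 3.07, 3.56 and 4.91 cpm in females and 6.81, 7.12 and 5.56 cpm in males, and COL18A1, a collagen of basement membranes, had 5.13, 5.31 and 4.75 against 7.43, 6.61 and 6.63 cpm. The remaining genes with higher values in males were TSPAN10, ZIC4, BRCA1, LOC100219092 and MRPS12, at 1.31-fold to 1.87-fold, with edgeR adjusted p-values of 0.538 to 0.671. Of these, ZIC4 was at or below 1.01 cpm in all adult pools.

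Values in females were 1.11-fold to 1.67-fold higher in the 10 genes with males below, and values in males 1.31-fold to 1.91-fold higher in the 10 with males above. FBLN1 on chromosome 1A, an extracellular matrix protein, had 5.13, 5.14 and 6.24 cpm in female pools 1, 2 and 3, and 4.45, 3.89 and 4.18 cpm in the male pools, or 1.32-fold more in females (edgeR adjusted p = 0.464). SETD4 on chromosome 1, which belongs to a family of methyltransferases, had 7.14, 9.83 and 9.49 cpm in females and 5.63, 5.81 and 4.79 cpm in males (edgeR adjusted p = 0.506). PPL, or periplakin, a linker of cell junctions and the cytoskeleton, had 120, 78.6 and 87.7 cpm in females and 65.4, 63.7 and 73.9 cpm in males (edgeR adjusted p = 0.659). CDC7, a kinase of replication origins, had 1.17, 1.75 and 1.38 cpm in females and 0.957, 1.01 and 0.612 cpm in males. BUB1, a kinase of the spindle checkpoint, had 2.79, 2.94 and 4.69 against 2.31, 2.07 and 2.40 cpm, and FANCI, of the Fanconi anaemia pathway, had 7.65, 6.67 and 7.23 against 4.05, 5.25 and 5.91 cpm. ELMOD1, PLCL1, CDCA7L and SESN1 were 1.11-fold to 1.25-fold higher in females, with edgeR adjusted p-values of 0.692 to 0.776. None of these 20 genes was called over the younger samples, where edgeR adjusted p-values ranged from 0.109 to 1.00.

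**Figure D4:**
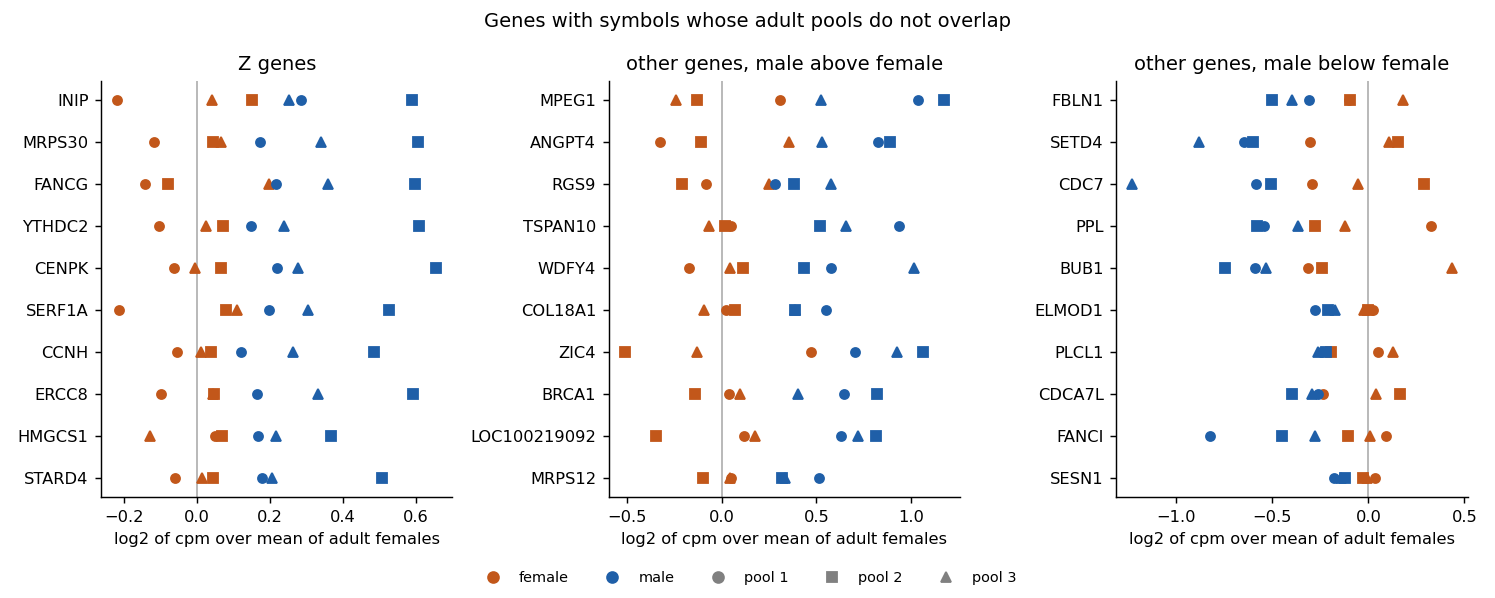
Adult values of 30 genes with a symbol, chosen for pools that do not overlap between the sexes, as log2 of cpm over the mean of the adult female pools (x axis, its range set for each panel) by gene (y axis); each point is a pool. Male pool 2 is the rightmost point in every Z gene shown on the left, whereas the highest male pool varies among the other genes.

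Z genes as listed had a lower median M:F ratio in adults than at 65 dph. Lists behind them have no group for a male bias gained after 1 dph, which fixed this in part. The median adult log2 M:F ratio was 0.19 over the 639 Z genes, or 1.14-fold, against 0.00 over all tested genes and 0.71 over the Z genes at 65 dph, or 1.64-fold. Males had the higher fitted level in 558 Z genes (87.3%), compared with 50.0% of all tested genes, and the pools did not overlap in 116 Z genes with males above (18.2%) and in 3 with males below (0.469%), against 4.8% and 3.53% of all tested genes. The median was 0.28 without male pool 1 and 0.08 without male pool 2, and it lay between 0.17 and 0.21 without any of the other adult pools. Among the 94 Z genes with males above, pools that did not overlap and an unadjusted p under 0.05, male pool 2 was the highest male in 86 and male pool 1 the lowest in 69. Among the 183 other genes that met the same terms, male pool 2 was the highest male in 72 and male pool 1 the lowest in 55.

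The 10 Z genes of lowest p under the same terms were all higher in males. INIP, of a complex that binds single-stranded DNA, had 47.9, 61.9 and 57.3 cpm in female pools 1, 2 and 3, and 67.9, 83.7 and 66.4 cpm in the male pools. The difference was 0.38 ± 0.08 on the log2 scale (SE, edgeR adjusted p = 0.20) and 1.02 over the younger samples. CENPK, a protein of the kinetochore, had 32.0, 35.0 and 33.3 cpm in the female pools and 38.9, 52.8 and 40.6 cpm in the male pools, a log2 difference of 0.40 against 1.09 over the younger samples. STARD4, a carrier of cholesterol, had 98.8, 106 and 104 cpm in the female pools, and 116, 146 and 119 cpm in the male pools. Male pools 1 and 3 stood just above the females and male pool 2 far above them in each of these genes. In younger birds STARD4 ranged from 53.5 to 80.8 cpm in females and from 103 to 165 cpm in males, so that the adult females lay above all the younger females. MRPS30 of the mitochondrial ribosome, FANCG of the Fanconi anaemia complex, YTHDC2, a reader of methylated adenosine in RNA, SERF1A, CCNH, the cyclin of the CDK-activating kinase, ERCC8, of transcription-coupled DNA repair, and HMGCS1, of cholesterol synthesis, were 1.19-fold to 1.32-fold higher in males, with edgeR adjusted p-values of 0.21 to 0.322. The staged test called all 10 of these Z genes, the likelihood ratio test INIP, MRPS30, FANCG and YTHDC2, and DESeq2's Wald test INIP and MRPS30.

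NTRK2 and GADD45G, Z genes that the study discussed, were also not called in adults. NTRK2, the receptor of brain-derived neurotrophic factor, had 337, 325 and 270 cpm in the female pools and 293, 400 and 347 cpm in the male pools, so that male pool 1 lay below 2 of the female pools (log2 difference of 0.16 ± 0.11, SE, edgeR adjusted p = 1.00). Over the younger samples its log2 difference was 0.45 (edgeR adjusted p = 1.95e-05). GADD45G, a stress-induced gene of DNA demethylation and signalling, had 7.09, 5.48 and 6.79 cpm in the female pools and 7.43, 8.28 and 7.54 cpm in the male pools, a log2 difference of 0.26 ± 0.14 (SE, edgeR adjusted p = 1.00). Its adult pools did not overlap, as in 18.6% of Z genes. The log2 difference of GADD45G was 0.38 over the younger samples (edgeR adjusted p = 0.00108) and 0.23 at 65 dph.

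The adult sex difference was compared with that at 65 dph, the nearest age. The interaction test of edgeR called 130 genes, or 0.936% of those tested, of which 118 were Z genes and 12 other genes. In all 118 Z genes the log2 M:F ratio was lower in adults than at 65 dph, and among the 12 other genes it was lower in 3 and higher in 9. The direction in Z genes was fixed in part, since lists behind them have no group for a male bias gained after 1 dph. The median change was -0.50 on the log2 scale over the Z genes and 0.01 over the other genes. Leaving out male pool 2 raised the count to 241 genes, whereas leaving out male pool 1 lowered it to 67, male pool 3 to 84 and female pool 2 to 73. The likelihood ratio test gave 217 genes and DESeq2's Wald test 221.

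Genes called over the younger samples (4.64% of those tested) were followed into adults. Of 534 Z genes higher in younger males, 498 had the higher fitted level in adult males too, with a median log2 difference of 0.78 in younger birds and 0.21 in adults. Of 7 Z genes lower in younger males, all 7 were lower in adult males, with a median of -0.45 and -0.14. Among other genes, 15 of 20 that were higher in younger males were also higher in adult males, and 56 of 84 that were lower were also lower, with an adult median of -0.04. For comparison, 87.3% of all Z genes and 48.2% of all other genes were higher in adult males. Adult pools did not overlap, in the same direction, in 109 of the 534 Z genes, against 18.2% of all Z genes. They did not in 0 of the 7 Z genes, 1 of the 20 and 9 of the 84, against 0.469%, 4.16% and 3.67% of all genes of the same class.

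Lists of genes for hormone action, immunity and neural activity gave no called member in either direction by edgeR's quasi-likelihood test, the likelihood ratio test or DESeq2's Wald test. The staged test called 2 of 6 tested members of the interferon list, 1 of 8 of the steroid list and 8 of 27 of the Z-linked list. It called none of the other lists of this kind. Over all 13891 tested genes it called 258 higher and 41 lower in males. Over the 639 Z genes these numbers were 183 and 1. Of 43 symbols for the type I interferon response and innate immunity only 6 were found, so that this list was largely unmeasured by name. Of these, 5 were higher and 1 lower in males, with a median log2 difference of 0.32 against 0.00 over all genes. DDX58, a Z-linked sensor of viral RNA, had 45.2, 42.9 and 47.1 cpm in the female pools and 44.2, 72.2 and 48.3 cpm in the male pools (edgeR adjusted p = 1.00), so that male pool 2 alone stood far above the females. Of 26 symbols for sex steroid receptors and steroid metabolism, 8 were found, 4 higher and 4 lower in males, with a median of 0.03. HSD17B4, a Z-linked enzyme of peroxisomes, had 151, 158 and 168 cpm in the female pools and 163, 229 and 175 cpm in the male pools, and SULT1B1, a sulfotransferase, had 9.99, 8.47 and 10.5 against 12.7, 13.1 and 11.3 cpm, with edgeR adjusted p-values of 0.714 and 0.776. CYP19A1, the aromatase that makes oestradiol, had 31.2, 28.0 and 32.6 cpm in the female pools and 19.8, 28.2 and 26.4 cpm in the male pools (edgeR adjusted p = 1.00).

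Immediate early genes, which neural activity induces, had 9 of 26 symbols found, 2 of them on Z, with 7 higher and 2 lower in males. Their median log2 difference was 0.14, with none at an unadjusted p under 0.05. FOS had 24.2, 35.3 and 26.8 cpm in the female pools and 44.9, 37.8 and 26.1 cpm in the male pools, which overlapped. Neurotrophin and growth factor signalling had 12 of 23 symbols found, 5 of them on Z, with 10 higher and 2 lower in males and a median of 0.10. Over all tested genes 50.0% were higher in males, and over Z genes 87.3%. Among Z-linked genes of hormone and brain function 26 of 30 symbols were found under 27 identifiers, with 22 higher and 5 lower in males, a median of 0.12, and 8 at an unadjusted p under 0.05. These are 81.5% and 29.6% of the list, against 87.3% and 30.5% of all Z genes. VLDLR, the receptor of very low density lipoprotein and reelin, had 76.5, 77.6 and 80.2 cpm in the female pools and 87.8, 99.5 and 88.7 cpm in the male pools (edgeR adjusted p = 0.38). KATNAL2, related to the microtubule-severing katanins, had 7.81, 11.0 and 8.94 cpm in the female pools and 12.9, 14.99 and 11.0 cpm in the male pools, so that female pool 2 and male pool 3 overlapped. GHR, the growth hormone receptor, which was male-biased by 0.60 on the log2 scale over the younger samples (edgeR adjusted p = 3.05e-07), had 11.8, 11.2 and 11.8 cpm in adult females and 10.1, 10.3 and 12.5 cpm in adult males.

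Markers of cell types were summed per pool as cpm of the library total. None of these genes was called by edgeR's quasi-likelihood test, whereas the staged test called RGS9 and BUB1. That test called 258 genes higher and 41 lower in males among all 13891 tested. Neuron markers, of which 5 of 8 were found, summed to 6791 to 7310 cpm in the female pools and 6716 to 7060 cpm in the male pools, and markers of glutamatergic projection neurons (5 of 6) to 1382 to 1543 and 1410 to 1491 cpm. GABAergic markers (5 of 7) summed to 1249 to 1380 cpm in females and 1296 to 1328 cpm in males. The sums of striatal markers (5 of 9), which include RGS9, were 375 to 409 cpm in females and 388 to 473 cpm in males, with the highest value in male pool 1. For astrocytes (3 of 7) they were 411 to 524 and 429 to 481 cpm, for oligodendrocytes (2 of 8) 1143 to 1660 and 1271 to 1442 cpm, for oligodendrocyte precursors (2 of 3) 25.3 to 30.5 and 23.2 to 29.8 cpm, and for endothelium (4 of 7) 34.7 to 39.4 and 35.8 to 37.6 cpm. Female and male pools overlapped in each of these sums, and neuron markers were expressed in every adult pool.

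Sums of markers of blood, linings and other brain regions overlapped between the sexes as well. Red blood cell markers (2 of 8) summed to 651 to 950 cpm in females and 524 to 812 cpm in males. Markers of the choroid plexus and ependyma (1 of 6) gave 11.1 to 14.2 and 10.9 to 14.4 cpm, and those of the meninges and fibroblasts (2 of 7) 20.3 to 22.4 and 19.4 to 24.2 cpm, although one of their genes, COL3A1, had 3.35, 2.71 and 3.86 cpm in females and 1.91, 2.52 and 2.34 cpm in males (edgeR adjusted p = 0.863). COL3A1 is listed under more than 1 identifier, so that its counts are uncertain. Markers of the hypothalamus and diencephalon (5 of 11) summed to 63.5 to 74.6 and 59.3 to 72.0 cpm, those of the cerebellum (1 of 6) to 67.3 to 73.3 and 61.3 to 81.8 cpm, and those of dividing cells (5 of 6) to 8.61 to 13.7 and 9.34 to 10.2 cpm. Of the 5 dividing cell markers found, 2 had higher and 3 had lower fitted levels in males. BUB1 and CDK1 were lower in males at an unadjusted p under 0.05, with edgeR adjusted p-values of 0.659 and 1.00. The CDK1 pools overlapped, with 14, 15 and 23 counts in females and 8, 16 and 8 counts in males. CCNB2 was higher in males by 0.29 on the log2 scale, and TOP2A differed by 0.00. No marker of microglia (0 of 8), of the midbrain and hindbrain (0 of 9) or of the pituitary and pineal (0 of 8) could be matched by symbol, so that the part of microglia or macrophages in the MPEG1 values was not tested.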

How the data were processed

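Per the labels, TruSeq stranded mRNA libraries were sequenced and the authors processed reads with FastQC 0.10.1, STAR 2.5.2b, SAMtools 0.1.18 and HTSeq 0.6.0. The deposited values are raw counts per Ensembl gene (taeGut3.2.4), not normalized or filtered, and the strand option of counting is not given in the sources used here. Symbols and chromosomes came from the study's gene lists. The adult contrast was fitted with edgeR 4.0.16 under R 4.3.3 (TMM, 8 group means over 24 samples, quasi-likelihood test, Benjamini-Hochberg at 0.05), with DESeq2 1.42.0 as an alternative. Each SE given with a log2 difference is the size of that difference divided by the square root of its F statistic. It rests on a spread estimated over all 24 samples and is not the spread of the adult pools. Indices used log2(cpm + 0.5), and Python 3.11.15 with scipy 1.17.1 gave exact two-sided permutation tests. The 1 cpm filter in 3 samples left out 4727 genes. The quasi-likelihood test was also run on simulated counts, in which the adult male pools shared the same mean levels. That run does not cover male pools that differ from each other, as these did. The samples, gene lists and rules were chosen with earlier results of these data known. Named were all called genes, the 10 other genes with a symbol of lowest p in each direction and the 10 Z genes with non-overlapping pools and p under 0.05, genes read mostly in females, NTRK2, GADD45G and list members of lowest p. Not every gene these rules give is reported here.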

Additional observations from a re-analysis of the deposited data

Results flagged for a closer look

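Sex differences that differed between adults and 65 dph were looked at again, with the difference itself tested by edgeR's interaction test. This applied to 130 genes in all and to 14 of the 38 genes named by rules other than list membership. Among genes named only as list members it also applied to HSD17B4 and GHR (edgeR adjusted p of the difference = 0.00609 and 0.0431). In HSD17B4 the male excess was smaller in adults. GHR had a log2 difference of 0.60 at 65 dph and of -0.08 in adults, so that no male excess was left in the fitted levels. The adult minus 65 dph log2 difference was 5.79 for ENSTGUG00000014010, 5.07 for ENSTGUG00000008939, 4.16 for ENSTGUG00000001661, 7.19 for ENSTGUG00000008960, 2.10 for ENSTGUG00000004607 and 2.05 for ENSTGUG00000017273. It was 0.80 for MRPS12, which was lower in males at 65 dph by 0.41 and higher in adult males by 0.39 on the log2 scale (edgeR adjusted p of the difference = 0.0388). MRPS12 and the 6 called genes were chosen on the adult difference that the interaction test contains, so that their values were fixed in part. For Z genes the male excess was smaller in adults, by -0.58 for INIP, -0.56 for MRPS30, -0.61 for YTHDC2, -0.69 for CENPK, -0.57 for SERF1A, -0.65 for CCNH and -0.73 for STARD4. In the Z genes male pools 1 and 3 lay below male pool 2. Whether the makeup of the adult pools or adult age had a part in these values was not tested.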

How the results depend on the processing

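The 6 calls in adults became 18 with the likelihood ratio test, 16 with DESeq2's Wald test and 299 with the staged test, all including the 6 genes, and ranged from 4 to 18 with an adult pool left out. The median log2 M:F ratio of Z genes ranged from 0.08 to 0.28 with a pool left out and from 0.17 to 0.19 otherwise, and the Z index difference from 0.08 to 0.27 and from 0.16 to 0.19. The 130 genes that differed from 65 dph became 217 with the likelihood ratio test and 221 with DESeq2's Wald test, and ranged from 67 to 241 with a pool left out. The search for genes read mostly in younger females gave 0 genes under the alternatives set beforehand and 13 under the rule added later. The cause of these changes was not tested. Of 77 alternative values of the called genes, 67 kept the call and 10 lost it, and no named gene changed direction. Of the 38 genes named by rules other than list membership, 12 were called over the younger samples. The number was the same with the likelihood ratio test and with DESeq2's size factors. Genes named only as list members are not in this number, and some of them, such as GHR and HSD17B4, were called there too. No paired analysis was possible because the library numbers run from 1 to 24 and pair no samples. With 3 pools per sex no exact permutation p can fall below 0.10.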
